A study of Mus musculus with 9 samples.

Results

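The transcripts of 42 genes of the primary cilium and the polycystins were followed in the extrahepatic bile duct (EHBD) after bile duct ligation (BDL). They were 17 intraflagellar transport (IFT) and dynein-2 genes, 7 BBSome and chaperonin genes, 10 transition zone genes, 4 genes of ciliary membrane traffic, and Pkd1, Pkd2, Pkhd1 and Trpv4. They were found by mouse symbol in the GENCODE annotation, and all 42 matched among the 55822 gene IDs of the table and were among the 21299 genes tested. Their counts in single libraries ran from 14 to 4232, and together they held 0.0358% to 0.0940% of a library. Whole EHBDs came from adult wild-type C57BL/6 mice (C57BL/6J in the methods) of both sexes, 24 hours after surgery, with 1 library per mouse. The 4 Sham mice (2 male, 2 female) had the abdomen opened only, and the 5 BDL mice (2 male, 3 female) also received a ligature on the duodenal side of the duct. Libraries are named by the sample numbers of the labels, which are replicates 1, 2, 5 and 7 in sham and 3, 4, 6, 8 and 10 in BDL, and values are listed in that order. The files hold no measure of the protein or of the organelle itself.

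The primary cilium is a single antenna-like projection, built on the mother centriole, that most non-dividing cells carry. On cholangiocytes, the epithelial cells that line bile ducts, it reaches into the lumen and is known to sense bile flow, osmolality and bile acids. Its parts are assembled by IFT, in which IFT-B trains move to the tip and IFT-A trains return with dynein-2. The BBSome, named for Bardet-Biedl syndrome, carries membrane proteins out of the cilium, the transition zone at its base acts as a gate, and the polycystins and fibrocystin are ciliary membrane proteins whose loss causes cystic disease of kidney and bile ducts. Cells take the cilium down before they divide.

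Libraries held 23067967 to 29991945 counts, and a level here is a count divided by the size factor of its library (a normalized count), which sets libraries of different composition on a common scale. Pancreatic acinar transcripts differed widely between and within the groups. The 20 acinar markers took 23.6% of the counts in replicate 1, 41.8% in replicate 5, 55.7% in replicate 2 and 61.8% in replicate 7, against 0.0104% to 3.45% after BDL, and size factors ran from 0.434 to 1.17 in sham and from 1.22 to 1.63 in BDL. The 10 cholangiocyte markers summed to 122885 to 178241 normalized counts in sham and 305163 to 453808 after BDL, with 7 higher, 1 lower (Sox9) and none at 0, so the labelled tissue carried its defining genes in every library. Summed neutrophil markers were at 98.3 to 581 in sham and 2427 to 23905 after BDL (7 of 7 higher), fibroblast markers at 58232 to 101109 and 6207 to 45355 (4 of 7 lower), endothelial markers at 5627 to 11595 and 2372 to 5377 (3 of 5 lower), smooth muscle markers at 8025 to 22000.4 and 2230.3 to 12624 (2 of 5 lower), islet markers at 8545 to 151341 and 176 to 9913 (6 of 6 lower), and the 5 proliferation genes at 929 to 1404 and 13366 to 29273 (5 of 5 higher). Macrophage (1 of 5 higher), T and B cell (2 of 5 lower), adipocyte (3 of 4 lower), mesothelial (1 higher and 1 lower of 3) and Schwann cell markers (2 of 3 lower) also held calls. The part of these shifts in the results on the cilium genes was not tested. In whole tissue, fewer cells of a type and less RNA per cell cannot be told apart.

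Many ciliary genes carry an X-box, the site of RFX transcription factors, near their start. Both strands from 250 bases before to 50 bases after the start of each canonical transcript were searched for the core letters of this palindrome, GTNNCC, then any pair of bases, then GGNNAC. They stood in the window of 9 of the 42 genes (21.4%) and of 409 of 21563 annotated promoters (1.90%). The 9 were Bbs1, Bbs4, Bbs7, Ift22 (2 matches), Ift57, Nphp4, Tctn1, Tctn2 and Wdr19. The fuller palindrome, GTTNCC, AT and GGNAAC in a row, was in none of the 42 and in 22 promoters (0.102%). The half-site GTTGCCAT, which can lie inside the fuller palindrome, was in 2 of the 42, Ift81 and Tctn2, and in 238 promoters (1.10%). A match is a description of letters and not a measured site. The sequences show a feature that the choice of genes did not use. They were read from GRCm39 at GENCODE starts, 5′ to 3′ on the strand of the gene, with the match in capitals. The first 3 genes passed the test between the groups and the other 4 did not.
Wdr19, chr5:65356997-65357026 (+): tttgcacgGTCTCCTGGGTGACgagaacgc
Tctn2, chr5:124736742-124736771 (+): gattggagGTTACCATGGCTACtggtcctc
Nphp4, chr4:152562360-152562389 (+): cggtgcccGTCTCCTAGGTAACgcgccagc
Ift57, chr16:49519562-49519591 (+): cgggtctgGTTGCCGTGGTGACcggctgcc
Bbs7, chr3:36667638-36667667 (-): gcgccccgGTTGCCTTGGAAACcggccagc
Bbs1, chr19:4956633-4956662 (-): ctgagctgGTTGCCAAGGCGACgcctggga
Ift22, chr5:136936963-136936992 (+): tgttcccgGTCGCCGTGGAAACtgaccagc
The match of Nphp4 began 231 bases before its start, that of Tctn2 62 bases and that of Wdr19 30 bases before, while that of Bbs1 began 22 bases and that of Ift57 26 bases after it.

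After BDL the cilium genes were more often lower than higher, and both directions occurred within the same complexes. Of the 42, 16 were lower, 5 were higher and 21 did not pass edgeR's quasi-likelihood test with TMM scaling and a term for sex (adjusted p under 0.05 over all genes tested). Lower calls were thus 38.1% of the members against 19.9% of all genes, higher calls 11.9% against 21.4%, and calls in either direction 50% against 41.4%. The shares of all genes depend on the low-count filter. With 10 counts required in 4 libraries, 26.7% of 15921 genes were lower and 27.4% higher. Under that filter 19 members were lower (45.2%) and 4 higher (9.52%). The 16 genes that were lower were Pkd1, Pkd2, Pkhd1, Ift20, Ift46, Ift81, Ift172, Ift122, Wdr19, Dync2h1, Bbs2, Bbs9, Tmem231, Cc2d2a, Tctn2 and Arl3, and the 5 that were higher were Ift27, Ift74, Ift43, Bbs12 and Nphp4. Their changes were mostly under 2-fold, and 7 of the 21 exceeded it. The median log2 fold change was -0.26 over the 42 genes and -0.033 over all genes. Every sham library lay below every BDL library in 4 members (9.52%, against 19.2% of all genes), every sham library lay above in 16 (38.1%, against 19.0%), and 22 overlapped. In either direction, sham and BDL libraries kept apart in 47.6% of the members and 38.2% of all genes. Summed over the 42 genes, the level was 20289 ± 469 (SD, n = 4) normalized counts in sham and 15398 ± 999.9 (SD, n = 5) after BDL, and no BDL library, at up to 16535, reached the lowest sham library at 19961.

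These directions depend on the scaling. With libraries scaled by total counts alone, where the median log2 fold change of all genes was 0.89, edgeR called 15 members higher and none lower (0 lower at an unadjusted p under 0.05 too), and 20 members changed sign. The 15 were 35.7% of the members, against 38.3% of all genes called higher, and 5.38% of all genes were called lower. The member median was then 0.69, which is -0.20 relative to all genes, near the -0.23 with TMM. DESeq2, which scales by its own size factors, called 5 higher and 20 lower, 11.9% and 47.6% of the members against 21.9% and 23.8% of all genes. With the log2 acinar level of each library as a further term, edgeR called 5 members lower and none higher (1 higher at an unadjusted p under 0.05), and with sham replicates 1 and 5 alone, the pair with the smallest acinar shares, 8 were lower and 1 was higher. The acinar level did not overlap between sham and BDL libraries, so a fit with this term cannot tell surgery and acinar share apart. Its standard errors could be larger, as for Ift20 (0.36 with the term, 0.19 without), so a call kept or lost there decides nothing about acinar RNA. The 5 lower with the acinar term were 11.9% of the members, against 1.72% of all genes, of which 5.09% were higher. The 8 lower and the 1 higher with the 2 sham libraries were 19.0% and 2.38% of the members, against 13.6% and 17.0% of all genes. Against a fold of 1.5, 6 members were lower and 1 was higher (14.3% and 2.38%, with 11.1% and 10.8% of all genes), and at an adjusted p under 0.01 these were 10 and 2 (23.8% and 4.76%, with 11.8% and 15.2%). Ift122, Bbs2, Tmem231 and Pkd2 were lower with the acinar term, with sham replicates 1 and 5 alone and in every fit with 1 library left out. Of the scalings, filters, model terms and library choices, only total counts ended their calls. The fit against a fold of 1.5 was not read for single genes. Of the 21 calls, 13 held with any 1 library left out.

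**Figure D1:**
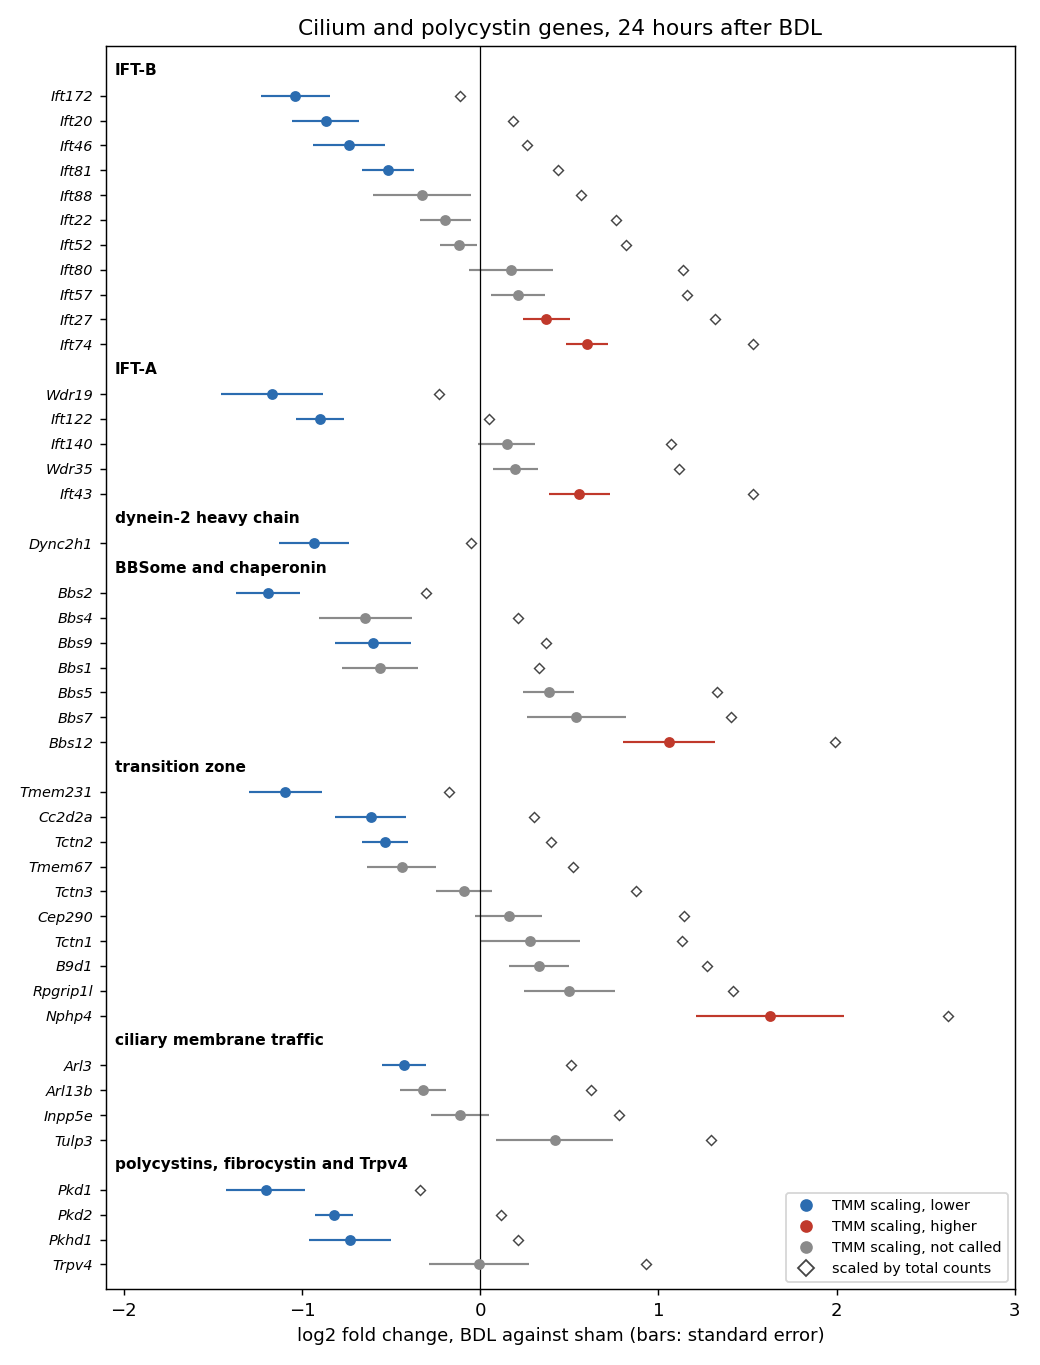
Log2 fold change of BDL against sham for each of the 42 genes by role, with filled points and standard error bars from the TMM-scaled edgeR fit (blue lower, red higher, grey not called) and open diamonds from scaling by total counts. Filled points run from -1.20 for Pkd1 to 1.63 for Nphp4, and diamonds sit to the right of the points, above 0 for 20 of the genes whose points are below 0.

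Pkd2 had the highest normalized counts of the 42 genes and, like Pkd1 and Pkhd1, was lower after BDL, while Trpv4 did not pass. Pkd2 (ENSMUSG00000034462, chr5:104607240-104654573) encodes polycystin-2, a cation channel of the TRP family that works with the receptor-like polycystin-1. Its normalized counts were 3623, 3362, 3248 and 3705 in sham and 1777, 2155, 1852, 1736 and 2043 after BDL. The sham libraries lay close together and all above the BDL libraries, and the log2 fold change was -0.82 ± 0.11 (SE, adjusted p = 0.000318), where SE is the standard error, with 56.6% of the sham level left. Pkd1 (ENSMUSG00000032855, chr17:24768808-24815482), the gene most often mutated in autosomal dominant polycystic kidney disease in people, stood at 1015, 1068, 1599 and 763 in sham and 419, 346, 522, 493 and 561 after BDL. Sham replicate 5 was the highest and replicate 7 the lowest of its group, yet the groups did not overlap, and the log2 fold change was -1.20 ± 0.22 (SE, adjusted p = 0.00205). Pkd1 shares 700 exon bases with Tsc2 on the opposite strand, whose own log2 fold change was -0.50 (adjusted p = 0.00161), and reads of the 2 genes cannot be told apart there because the kit does not mark strand.

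Pkhd1 (ENSMUSG00000043760, chr1:20128003-20688288), which encodes fibrocystin and is mutated in the recessive form of the disease with bile duct malformation, stood at 397, 372, 299 and 359.6 in sham and 155, 265, 292, 159 and 193 after BDL. BDL replicates 4 and 6 came near the lowest sham library, replicate 5, and the other 3 lay well below, with a log2 fold change of -0.73 ± 0.23 (SE, adjusted p = 0.0286). Its call ended without sham replicate 1 (adjusted p = 0.0756), 2 (0.0643) or 7 (0.0586) or BDL replicate 3 (0.0878) or 10 (0.0706), and its adjusted p ranged from 0.00527 to 0.704 over all alternatives. Trpv4 (ENSMUSG00000014158, chr5:114760209-114796914), a calcium channel that responds to osmolality on cholangiocyte cilia in rats, was at 390.3, 391.7, 303 and 293 in sham and 269, 306, 574, 220.2 and 301 after BDL. BDL replicate 6 stood apart at 574 and the other 8 libraries overlapped, with a log2 fold change of -0.0059 ± 0.28 (SE, adjusted p = 0.990) that was 0.11 at most and -0.27 at least with 1 library left out. The 4 genes together summed to 5120.1 to 5449 normalized counts in sham and 2609 to 3241 after BDL. Scaled by total counts, the log2 fold change was 0.12 for Pkd2, 0.21 for Pkhd1, -0.34 for Pkd1 and 0.93 for Trpv4, none of which passed. With the acinar term, Pkd2 (-1.02, adjusted p = 0.0248) and Pkhd1 (-1.67, 0.0159) stayed lower and Pkd1 (-1.25, 0.150) did not pass, and with sham replicates 1 and 5 alone Pkhd1 did not pass (-0.73, 0.1255).

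Per kilobase of the canonical transcript, which allows genes to be set side by side, sham levels ran from 5.95 normalized counts for Nphp4 to 1039 for Ift20, with a median of 102 over the members. Pkd2 was at 571 in sham and 313 after BDL, Trpv4 at 106 and 103, Pkd1 at 78.5 and 33.0, and Pkhd1 at 27.6 and 16.5. Arl3 (623 and 451) and Ift43 (600.2 and 863) were the other members above 500 in sham. Per kilobase, the order of the 4 polycystin-group genes by mean was the same in both groups.

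**Figure D2:**
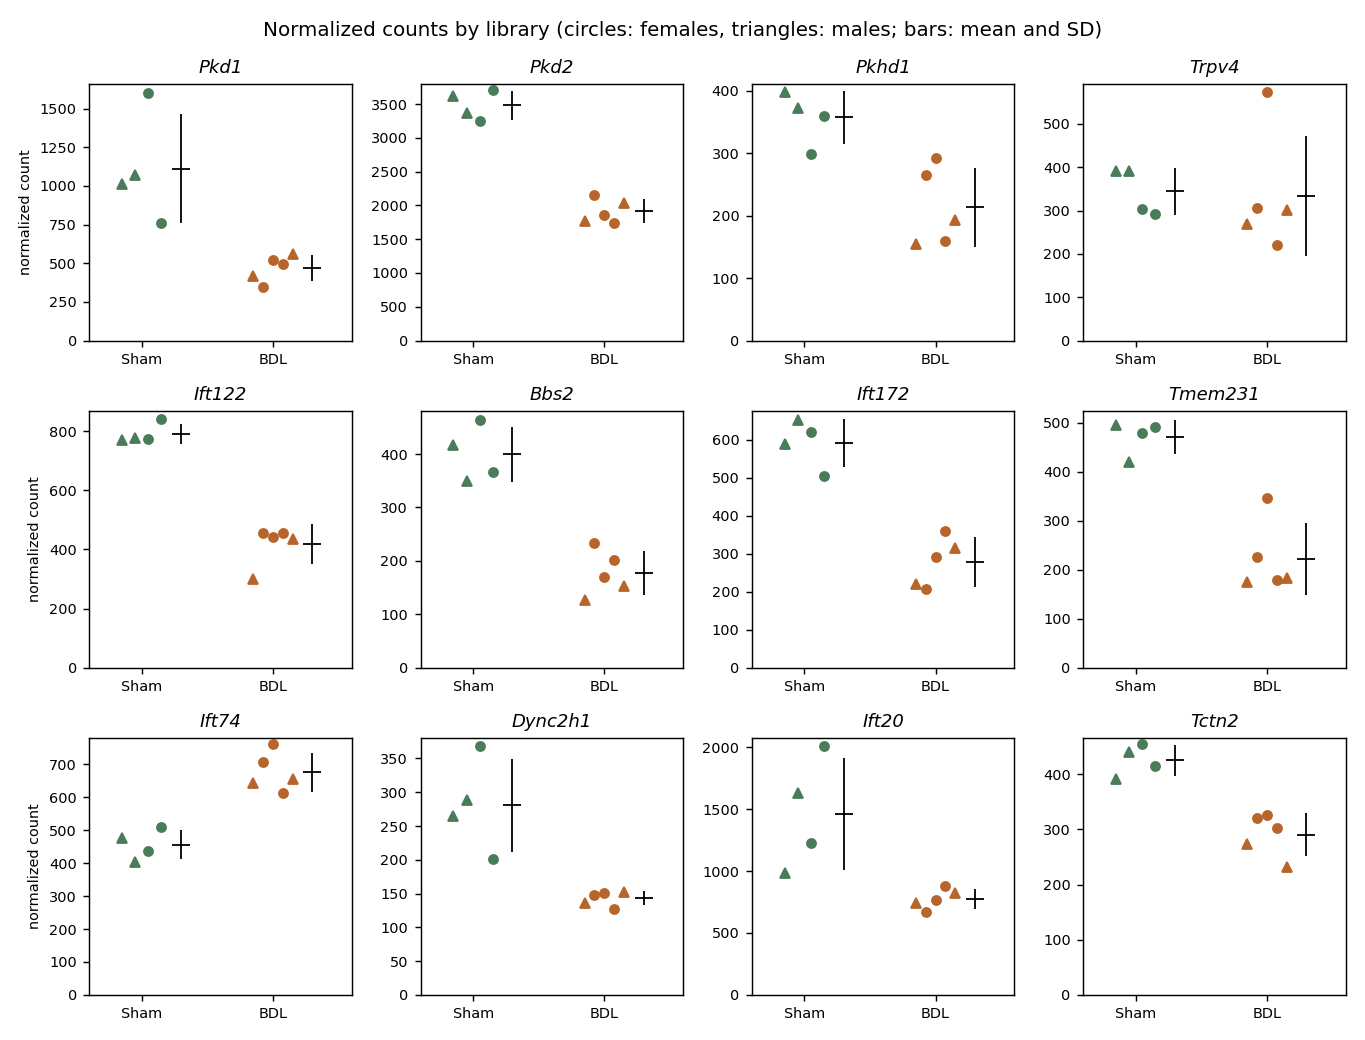
Normalized count in each library for the 4 polycystin-group genes and the 8 other called members of smallest p, with green points for sham, orange points for BDL, circles for females and triangles for males, and bars for the mean and SD. Outside Trpv4, sham and BDL points do not overlap in any panel, and Ift74 is the only panel in which BDL is higher. By total counts Pkd2 (0.12), Pkhd1 (0.21), Ift122 (0.047), Ift20 (0.18) and Tctn2 (0.40) have log2 fold changes above 0.

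Among the 11 IFT-B genes, 4 were lower (36.4%), 2 were higher (18.2%) and 5 did not pass. Over all genes, 19.9% were lower and 21.4% higher. Ift172 (ENSMUSG00000038564, chr5:31410612-31448512), a peripheral IFT-B subunit that acts where trains turn around at the tip, was at 589, 651, 620.0 and 505 in sham and 219.6, 206, 290.4, 360.0 and 315 after BDL. All BDL libraries lay below the lowest sham library, and the log2 fold change was -1.04 ± 0.19 (SE, adjusted p = 0.00221). Ift20 (ENSMUSG00000001105, chr11:78426693-78432563), the IFT-B subunit that also sits at the Golgi and sorts membrane proteins to the cilium, was at 984, 1627, 1223 and 2008 in sham and 746, 671, 763, 878 and 821 after BDL. Its BDL libraries were close together while its sham libraries spread widely in the order of their acinar share, and the log2 fold change was -0.87 ± 0.19 (SE, adjusted p = 0.00515). Ift20 also shares 349 exon bases with Tmem97 (log2 fold change -1.64, adjusted p = 0.00530) and 264 with Tnfaip1 (0.95, 7.7e-05) on the opposite strand. Ift46, which links outer dynein arms to the train in Chlamydomonas, was at 401, 542, 448 and 581 in sham and 289, 203, 258, 385 and 298 after BDL and had a log2 fold change of -0.73 ± 0.20 (SE, adjusted p = 0.0163). Its sham libraries, too, followed the acinar share, and the call ended without sham replicate 7 (adjusted p = 0.0591; 0.00196 to 0.947 over all alternatives). Ift81, which binds tubulin together with Ift74 in people, was at 437, 537, 402 and 429 in sham and 302, 329, 291, 341 and 262 after BDL and had a log2 fold change of -0.52 ± 0.14 (SE, adjusted p = 0.0171). It did not pass without sham replicate 2 (0.0513) or BDL replicate 10 (0.0542), with 0.000949 to 0.414 over all alternatives.

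Ift74 (ENSMUSG00000028576, chr4:94502652-94584411), the partner of Ift81 in that tubulin-binding module, moved the other way. It was at 475, 404, 438 and 509 in sham and 642, 708, 762, 613 and 655 after BDL, with every BDL library above every sham library and a log2 fold change of 0.60 ± 0.12 (SE, adjusted p = 0.00320). Its exons share 2077 bases with Lrrc19 on the opposite strand, a gene near 0 here. Ift27, a small GTPase that helps the BBSome leave the cilium, was at 377, 389.9, 533 and 562 in sham and 620.2, 583, 628, 558 and 541 after BDL. Sham replicates 5 and 7 reached into the BDL range, and the log2 fold change was 0.37 ± 0.13 (SE, adjusted p = 0.0451). That call was lost without sham replicate 1 (0.104), 2 (0.124) or 5 (0.0660) or BDL replicate 3 (0.128), 6 (0.0739) or 10 (0.0930), under DESeq2 (0.0509) and under other filters and scalings (0.00360 to 0.254 over all alternatives). The remaining IFT-B genes, Ift22, Ift52, Ift57, Ift80 and Ift88, had log2 fold changes from -0.33 (Ift88, adjusted p = 0.374) to 0.21 (Ift57, 0.294). Ift88 was low and variable, at 239.7, 123, 206 and 249 in sham and 135, 112, 146, 218 and 184 after BDL. Ift80 turned negative without BDL replicate 8 (-0.035).

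The 5 IFT-A genes split as well, with 2 lower, 1 higher and 2 that did not pass. Ift122 (ENSMUSG00000030323, chr6:115830431-115903683), a core subunit of the returning train, was at 769, 776, 772 and 841 in sham and 301, 457, 442, 455 and 435 after BDL. It was among the steadiest members in sham, BDL replicate 3 was the lowest, and the groups were far apart with a log2 fold change of -0.90 ± 0.13 (SE, adjusted p = 0.000653). Wdr19 (ENSMUSG00000037890, chr5:65357035-65417758), also known as IFT144 and one of the genes with X-box letters printed above, was at 291, 287, 242 and 260.5 in sham and 68.6, 106, 115, 205 and 112 after BDL. BDL replicate 8 was nearest to sham, and the log2 fold change was -1.17 ± 0.29 (SE, adjusted p = 0.00936). Ift43, the smallest IFT-A subunit, was at 446, 508, 405 and 521 in sham and 631, 826, 810.3, 501 and 608 after BDL, with BDL replicate 8 inside the sham range and a log2 fold change of 0.56 ± 0.17 (SE, adjusted p = 0.0262). Its call ended without sham replicate 1 (0.0504) or 5 (0.0930) or BDL replicate 3 (0.0537) or 6 (0.0525), with 0.00140 to 0.950 over all alternatives. Ift140 (0.15, adjusted p = 0.489) and Wdr35 (0.20, 0.241) did not pass. Dync2h1 (ENSMUSG00000047193, chr9:6928503-7184497), the heavy chain of the dynein-2 motor that pulls these trains back, was at 265, 288, 368 and 201 in sham and 136, 147, 151.4, 128 and 152 after BDL. The BDL libraries were tightly grouped below the sham libraries, and the log2 fold change was -0.93 ± 0.20 (SE, adjusted p = 0.00427).

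Over the 17 transport genes, 7 were lower and 3 higher with TMM scaling (41.2% and 17.6%, against 19.9% and 21.4% of all genes). Scaled by total counts, Ift122 (0.047), Ift20 (0.18), Ift46 (0.26) and Ift81 (0.44) were above 0, and Ift172 (-0.11), Wdr19 (-0.23) and Dync2h1 (-0.050) did not pass. The 4 members whose 4 sham libraries stood in the order of the acinar share were all in this group (Ift20, Ift46, Ift80 and Ift122, each highest where the share was highest), and none of the 42 stood in the opposite order. How many of all genes stood in that order was not counted, so the 4 cannot be set against a background. The rise was slight for Ift122 in replicates 1, 5 and 2 (769, 772 and 776). With the acinar term only Ift122 passed among the 17 transport genes (-1.10, adjusted p = 0.0458). With sham replicates 1 and 5 alone Ift122 (-0.88), Ift172 (-1.09) and Dync2h1 (-1.11) were lower and Ift74 (0.60) was higher, while Ift20 (-0.47, 0.0572) and Wdr19 (-1.19, 0.0568) did not pass.

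**Figure D3:**
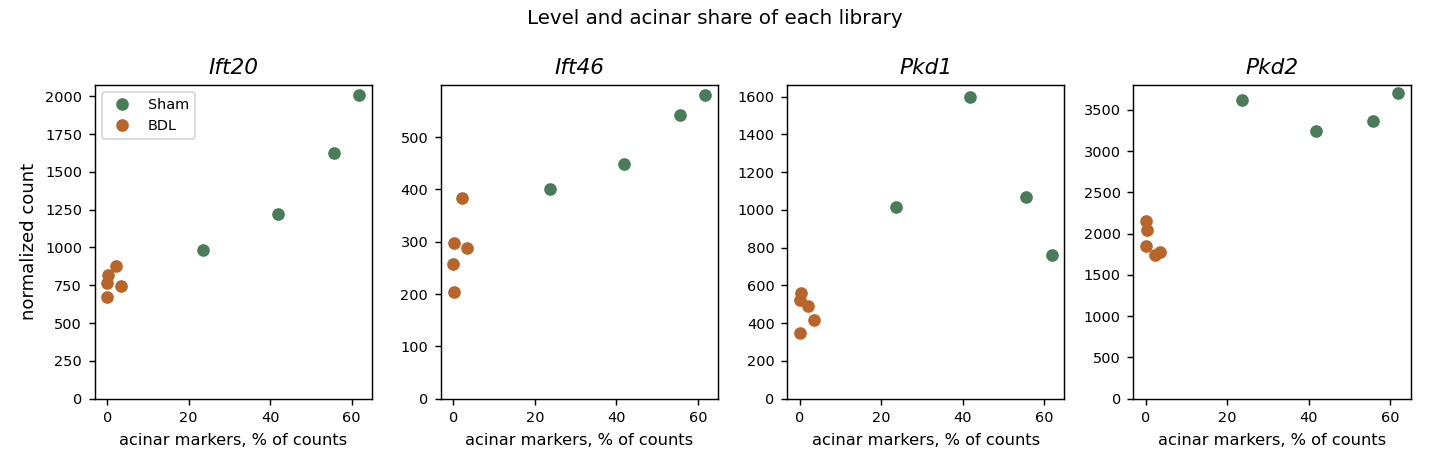
Normalized count of 4 genes against the percent of each library's counts in the 20 acinar markers, with green points for sham and orange points for BDL. Ift20 and Ift46 rise with the acinar share among the 4 sham libraries, from 984 to 2008 and from 401 to 581, whereas Pkd1 and Pkd2 show no such order. How many of all genes show such an order was not counted.

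Of 7 genes of the BBSome and its chaperonin, 2 were lower (28.6%), 1 was higher (14.3%) and 4 did not pass. Over all genes, 19.9% were lower and 21.4% higher. Bbs2 (ENSMUSG00000031755, chr8:94794580-94825556), a core subunit, was at 417, 350.0, 464 and 367 in sham and 126, 233, 169.9, 201 and 153 after BDL. The groups were well separated, with 43.8% of the sham level left by the fit and a log2 fold change of -1.19 ± 0.18 (SE, adjusted p = 0.000690). Bbs9, another subunit of the coat, was at 271, 348, 273 and 293 in sham and 140.1, 165, 238, 263 and 169.7 after BDL and had a log2 fold change of -0.60 ± 0.21 (SE, adjusted p = 0.0457). BDL replicates 6 and 8 lay close under the sham range, and the call did not hold without sham replicate 1 (0.0953), 2 (0.117), 5 (0.0504) or 7 (0.0672) or BDL replicate 3 (0.131), 4 (0.0661) or 10 (0.102), with 0.0121 to 0.481 over all alternatives. Bbs12 (ENSMUSG00000051444, chr3:37366664-37375606), a chaperonin-like protein that helps the BBSome assemble, was at 56.5, 52.6, 47.2 and 53.0 in sham and 86.1, 119.6, 154, 90.8 and 93.0 after BDL. Every BDL library was above every sham library, BDL replicate 6 the most, with a log2 fold change of 1.06 ± 0.26 (SE, adjusted p = 0.00899). Bbs12 shares 224 exon bases with Cetn4 on the opposite strand, which was lower (log2 fold change -1.10, adjusted p = 0.0408).

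The other subunits showed values on either side of 0 that did not pass. Bbs1, which binds the GTPase that recruits the coat, had a log2 fold change of -0.56 ± 0.21 (SE, adjusted p = 0.0608) and passed without BDL replicate 8 (-0.70, 0.0177) and with DESeq2 (0.0177). Bbs4, linked to centriolar satellites, had -0.64 ± 0.26 (SE, adjusted p = 0.0744) and passed without sham replicate 2 (-0.80, 0.0278). Bbs5, which binds membrane lipids, was at 190.0, 183, 176 and 209.8 in sham and 227, 236, 239.7, 255 and 245 after BDL. Its BDL libraries all lay above its sham libraries although the test was not passed, with a log2 fold change of 0.38 ± 0.14 (SE, adjusted p = 0.0578), and DESeq2 gave an adjusted p of 0.0240. Bbs7 had 0.54 ± 0.28 (SE, adjusted p = 0.151). By total counts Bbs9 (0.37), Bbs1 (0.33) and Bbs4 (0.21) were above 0 and Bbs2 (-0.31) did not pass. With the acinar term Bbs2 stayed lower (-1.46, 0.0459) and Bbs12 did not pass (0.36, 0.658), and with sham replicates 1 and 5 alone Bbs2 (-1.35, 0.00449) was lower and Bbs12 (1.05, 0.0619) did not pass.

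At the transition zone, 3 of 10 genes were lower, 1 was higher and 6 did not pass. Tmem231 (ENSMUSG00000031951, chr8:112638018-112660513), a membrane protein of the gate, was at 496, 419, 478 and 491 in sham and 174, 227, 346, 178 and 184 after BDL. BDL replicate 6 was the highest of its group and still under all sham libraries, and the log2 fold change was -1.09 ± 0.21 (SE, adjusted p = 0.00238). Tctn2, a tectonic of the same gate with X-box letters in its promoter, was at 391, 441, 455 and 415 in sham and 273, 321, 326, 302 and 232 after BDL, again without overlap, and had -0.53 ± 0.13 (SE, adjusted p = 0.00879). Cc2d2a, which lies at the base of the gate, was at 300.5, 321, 410.3 and 320.4 in sham and 157, 184, 219, 307 and 225 after BDL. BDL replicate 8 reached the sham range, the log2 fold change was -0.61 ± 0.20 (SE, adjusted p = 0.0328), and the call ended without sham replicate 1 (0.0729), 2 (0.0718) or 5 (0.105) or BDL replicate 3 (0.0885) or 6 (0.0615), with 0.00616 to 0.634 over all alternatives.

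Nphp4 (ENSMUSG00000039577, chr4:152560978-152647642), a nephronophthisis protein of the gate, had the largest fold of the 42 genes and the lowest level per kilobase. It was at 12, 30.8, 44.6 and 32.3 in sham and 70.8, 83.5, 145, 51.5 and 92.2 after BDL. Every BDL library exceeded every sham library, though sham replicate 1 rested on 14 counts, and the log2 fold change was 1.63 ± 0.42 (SE, adjusted p = 0.0115). It shares 333 exon bases with Kcnab2 on the opposite strand (0.67, adjusted p = 0.246). Tmem67, the Meckel syndrome receptor-like protein meckelin, had -0.44 ± 0.19 (SE, adjusted p = 0.0947) and passed without BDL replicate 8 (-0.53, 0.0489). Rpgrip1l (0.50), B9d1 (0.33), Tctn1 (0.28), Cep290 (0.16) and Tctn3 (-0.089) had adjusted p from 0.147 to 0.687, and these 5 overlapped between the groups. By total counts Tctn2 (0.40) and Cc2d2a (0.30) were above 0 and Tmem231 (-0.17) did not pass. Tmem231 stayed lower with the acinar term (-1.84, 0.0114), under which Nphp4 did not pass (0.98, 0.534) and Tctn2 did not pass (-0.63, 0.200), and with sham replicates 1 and 5 alone Tmem231 (-1.16, 0.0214) and Tctn2 (-0.54, 0.0416) were lower while Nphp4 was at 1.79 (0.0588).

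Of the 4 genes that bring lipid-anchored and membrane proteins into the cilium, 1 was lower (25.0%, against 19.9% of all genes) and 3 did not pass. Arl3, the GTPase that releases lipid-anchored cargo inside the cilium, was at 601, 555, 581 and 648 in sham and 433, 370.2, 503, 449.6 and 404 after BDL. The groups did not overlap, and the log2 fold change was -0.43 ± 0.13 (SE, adjusted p = 0.0213). Its call ended without sham replicate 1 (0.0711) or 7 (0.0608) or BDL replicate 10 (0.0546), with 0.00146 to 0.379 over all alternatives. Arl13b, the GTPase that activates Arl3, was at 431, 475, 465 and 454 in sham and 322, 380.0, 393, 304 and 376 after BDL. All BDL libraries lay under all sham libraries, but the log2 fold change of -0.32 ± 0.13 (SE, adjusted p = 0.0744) did not pass in edgeR, whereas it did in DESeq2 (0.0189). Inpp5e, the phosphatase that sets ciliary phosphoinositides (-0.11, adjusted p = 0.611), and Tulp3, the adaptor for receptors on IFT-A (0.42, 0.341), overlapped between the groups. By total counts Arl3 (0.51) and Arl13b (0.62) were above 0 and did not pass.

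The 3 genes with X-box core letters that passed were Nphp4, higher, and Tctn2 and Wdr19, lower, and the 6 others with the letters did not pass. Of the 33 members without them, 4 were higher and 14 lower. Called genes were thus 33.3% of the 9 and 54.5% of the 33, against 41.4% of all genes, and 9 genes are too few to tell these shares apart. The median log2 fold change was -0.20 over the 9 and -0.32 over the 33. Among the transcription factors of ciliary genes, edgeR called 2 of the 7 tested lower and none higher (0 higher at an unadjusted p under 0.05 and 0 by DESeq2). Lower calls were 28.6% of the 7, against 19.9% of all genes, too few genes to tell these shares apart. Rfx3, which drives ciliary genes in mice, was at 181, 194, 170.4 and 198 in sham and 98.5, 140.1, 97.3, 136 and 119 after BDL with a log2 fold change of -0.62 ± 0.19 (SE, adjusted p = 0.0263), and Rfx2 was at 164, 301, 209.7 and 168 in sham and 91.9, 82.7, 114, 58.9 and 97.6 after BDL with -1.17 ± 0.25 (SE, adjusted p = 0.00502). Rfx3 did not pass without sham replicate 1 (0.0589), 2 (0.0635) or 7 (0.0644) or BDL replicate 3 (0.0780), 6 (0.0523) or 10 (0.05004). Foxj1, the master factor of motile cilia, was at 82.2, 174, 52.4 and 113 in sham and 10.2, 10.6, 74.7, 3.68 and 17.8 after BDL and did not pass (-2.20, 0.0573). By total counts Rfx3 was at 0.33 and Rfx2 at -0.19, and neither passed. With the acinar term neither passed in edgeR (adjusted p = 0.457 for Rfx3 and 0.0919 for Rfx2), and with sham replicates 1 and 5 alone Rfx3 did not (0.142).

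A different response in males and females was not detectable in the 42 genes with 2 or 3 animals of a sex per group. No member passed the test of the interaction of surgery and sex in edgeR (0.0% of all genes passed) or in DESeq2, and Ift57 alone, 2.38% of the members against 2.55% of all genes, was past an unadjusted 0.05 in edgeR, where its log2 fold change in males minus that in females was -0.60. No member differed between the sexes (0.0188% of all genes did), and Wdr35 alone was past an unadjusted 0.05.

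Beyond the 42 genes, 117 other genes of the cilium in 10 lists were examined, of which 111 were tested, 26 were higher and 18 lower. Those were 23.4% and 16.2% of the genes tested, near the 21.4% and 19.9% of all genes. The lists differed in direction. Of 16 basal body and ciliogenesis genes, 9 were higher and 1 lower (56.2% and 6.25%). Cep83, a distal appendage protein that docks the centriole at the membrane, was at 272, 337, 252 and 277 in sham and 729, 824, 695, 581 and 739.9 after BDL with 1.39 ± 0.14 (SE, adjusted p = 7.9e-05). The vesicle GTPase genes Rab11a (log2 fold change 0.70, adjusted p = 0.00128) and Rab8a (0.57, 0.00246) and the ciliary tip kinase gene Cilk1 (0.91, 0.00362) were higher as well. Ttbk2, the kinase that starts cilium assembly, was lower (-0.67, 0.0198) and did not pass without sham replicate 1 (0.0619) or BDL replicate 3 (0.0526) or 10 (0.0575). Of 12 genes of the centriolar cap and cilium disassembly, edgeR called 6 higher and none lower (0 lower at an unadjusted p under 0.05, and 5 higher and 0 lower by DESeq2). Aurka, the mitotic kinase that also drives cilium disassembly, was at 38.5, 43.5, 27.5 and 32.3 in sham and 1441, 549, 367, 2515 and 1944 after BDL with 5.37 ± 0.63 (SE, adjusted p = 0.000188), and 4.77 without BDL replicate 8. Plk1 (log2 fold change 6.40, adjusted p = 0.000379, and 5.71 without BDL replicate 8), Nek2 (7.15, 8.7e-05, and 7.77 without sham replicate 1) and Kif24 (3.33, 1.4e-05), a kinesin that trims centriolar microtubules, were also higher. All 3 kinases act in mitosis, and the proliferation gene Mki67, measured beside them, had a log2 fold change of 6.94 ± 0.76 (SE, adjusted p = 0.000122).

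The nearer relatives of the member complexes were mixed. Of 14 other IFT and BBSome genes, 3 were higher and 3 lower (21.4% each), near the 21.4% and 19.9% of all genes. Ttc30b, an IFT70 subunit, was at 689.9, 673, 571 and 505 in sham and 206, 167, 171, 318 and 146 after BDL with -1.55 ± 0.24 (SE, adjusted p = 0.000898), Bbs10, a chaperonin, had -0.97 ± 0.26 (SE, adjusted p = 0.0153), and Lztfl1, a BBSome regulator, had -0.48 ± 0.14 (SE, adjusted p = 0.0187). Traf3ip1, or IFT54, was higher with 0.91 ± 0.21 (SE, adjusted p = 0.00589), as were Bbip1 (0.35, 0.0427) and Arl6 (0.33, 0.0472), the last 2 not without any of 7 libraries each (0.0547 to 0.139 for Bbip1, in all but sham replicate 2 and BDL replicate 10, and 0.0771 to 0.121 for Arl6, in all but sham replicate 1 and BDL replicate 8). Bbs10 did not pass without sham replicate 7 (0.0521), and Lztfl1 not without sham replicate 1 (0.0711) or 7 (0.0529) or BDL replicate 3 (0.0576). Of 9 motor genes, 1 was higher (11.1%) and 2 were lower (22.2%). Dync2li1, a light intermediate chain of dynein-2, was lower at 832, 577, 751 and 828 in sham and 308, 373, 379, 421 and 318 after BDL with -1.04 ± 0.14 (SE, adjusted p = 0.000370), in the direction of Dync2h1. Kif17 was lower at counts so small that its fold depends on the prior count (4.61 to 23.6 normalized counts in sham, 0 to 5.11 after BDL), and its call ended without sham replicate 5 (adjusted p = 0.116). Dynll1, a light chain of many dynein and other complexes, was higher (1.09, 0.000659). The kinesin-2 genes Kif3a (-0.25, 0.0862), Kif3b (0.35, 0.0849) and Kifap3 (-0.25, 0.228) did not pass. Of 16 other transition zone and nephronophthisis genes, Tmem237 (0.98, 0.000223) and Cspp1 (0.55, 0.0187) were higher and Iqcb1 (-0.79, 0.00778) and Anks6 (-0.67, 0.0173) lower. Those calls were 12.5% of the 16 in each direction, below the shares of all genes. Cspp1 was not called without sham replicate 2 (0.0536) or 7 (0.0539) or BDL replicate 10 (0.0595), and Anks6 not without sham replicate 2 (0.0518) or 7 (0.0509) or BDL replicate 3 (0.0551).

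Ciliary receptors and cystic disease genes outside the polycystins followed no single direction. Of 9 receptors and cyclases, Gpbar1, the bile acid receptor TGR5 that lies on cholangiocyte cilia, was at 62.5, 36.3, 15.7 and 20.7 in sham and 101, 31.9, 59.6, 104 and 129 after BDL and was higher with 1.57 ± 0.41 (SE, adjusted p = 0.0130). The groups overlapped, and without the sex term Gpbar1 did not pass (0.0529). Nor did it pass with sham replicates 1 and 5 alone (0.105) or with the acinar term (0.120). The cyclase gene Adcy6 (-0.59, 0.0218) and the Hedgehog transducer gene Smo (-0.40, 0.0335) were lower. Of the 9, 11.1% were thus higher and 22.2% lower, against 21.4% and 19.9% of all genes. Adcy6 lost its call without sham replicate 1 (0.0639) or 5 (0.0644) or BDL replicate 3 (0.0602), and Smo without sham replicate 1 (0.0673), 2 (0.0550) or 5 (0.126) or BDL replicate 3 (0.0811) or 8 (0.0561). Of 13 other cystic disease genes, 4 were higher and 1 lower (30.8% and 7.69%, against 21.4% and 19.9% of all genes). Alg8, a glucosyltransferase of the endoplasmic reticulum mutated in polycystic liver disease in people, was at 439, 330.1, 332 and 551 in sham and 1783, 1877, 1505, 1875 and 1904 after BDL with 2.16 ± 0.18 (SE, adjusted p = 3.3e-05), Dzip1l, a transition zone protein, had 1.37 ± 0.20 (SE, adjusted p = 0.000526), and Alg9 (0.66, 0.00246) and Prkcsh (0.32, 0.0216) were higher too. Glis3, a transcription factor of the kidney and pancreas, had -0.62 ± 0.18 (SE, adjusted p = 0.0222). Prkcsh did not pass without sham replicate 2 (0.0647) or 5 (0.0592) or BDL replicate 3 (0.0582) or 10 (0.0502), and Glis3 not without sham replicate 1 (0.0678) or 7 (0.0878) or BDL replicate 3 (0.0641). Of 6 polycystin relatives tested, Pkd2l2 was lower at 77.0, 134, 98.3 and 108 in sham and 33.6, 24.6, 23.3, 30.7 and 24.0 after BDL with -1.88 ± 0.27 (SE, adjusted p = 0.000586), and Pkhd1l1, at 123, 72.5, 347 and 59.9 in sham and 18.2, 0, 13.7, 7.97 and 14.7 after BDL, had -3.75 ± 0.84 (SE, adjusted p = 0.00572) and -2.72 without sham replicate 5. These 2 lower calls were 33.3% of the 6, against 19.9% of all genes, too few genes to tell the shares apart.

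Genes of motile cilia, which a duct lined by cells with a primary cilium is known to lack, were scarce. Of 12 listed, 9 could be tested, and edgeR called 3 lower and none higher (0 higher at an unadjusted p under 0.05 and 0 by DESeq2). Lower calls were 33.3% of the 9, against 19.9% of all genes, too few genes to tell these shares apart. Spag6l was at 41.1, 72.5, 26.2 and 46.1 in sham and 6.57, 10.6, 13.0, 8.59 and 5.42 after BDL with -2.35 ± 0.47 (SE, adjusted p = 0.00309), and Dnai1 (at most 12.7 normalized counts, 4 of 5 BDL libraries at 0) and Cfap43 (at most 32.6) did not hold without 6 of the 9 libraries each. Adjusted p without those were 0.0532 to 0.0927 for Dnai1 (all but sham replicates 1 and 7 and BDL replicate 3) and 0.0571 to 0.1249 for Cfap43 (all but sham replicates 1 and 7 and BDL replicate 6). By total counts, 53 of the 111 other cilium genes were higher and 1 was lower, and Bbs10, Lztfl1, Iqcb1, Anks6, Ttbk2, Adcy6, Smo, Glis3 and Rfx3 had values above 0. Those calls were 47.7% and 0.901% of the 111, against 38.3% and 5.38% of all genes. With the acinar term 9 were higher and 1 was lower, which is 8.11% and 0.901%, against 5.09% and 1.72% of all genes.

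**Figure D4:**
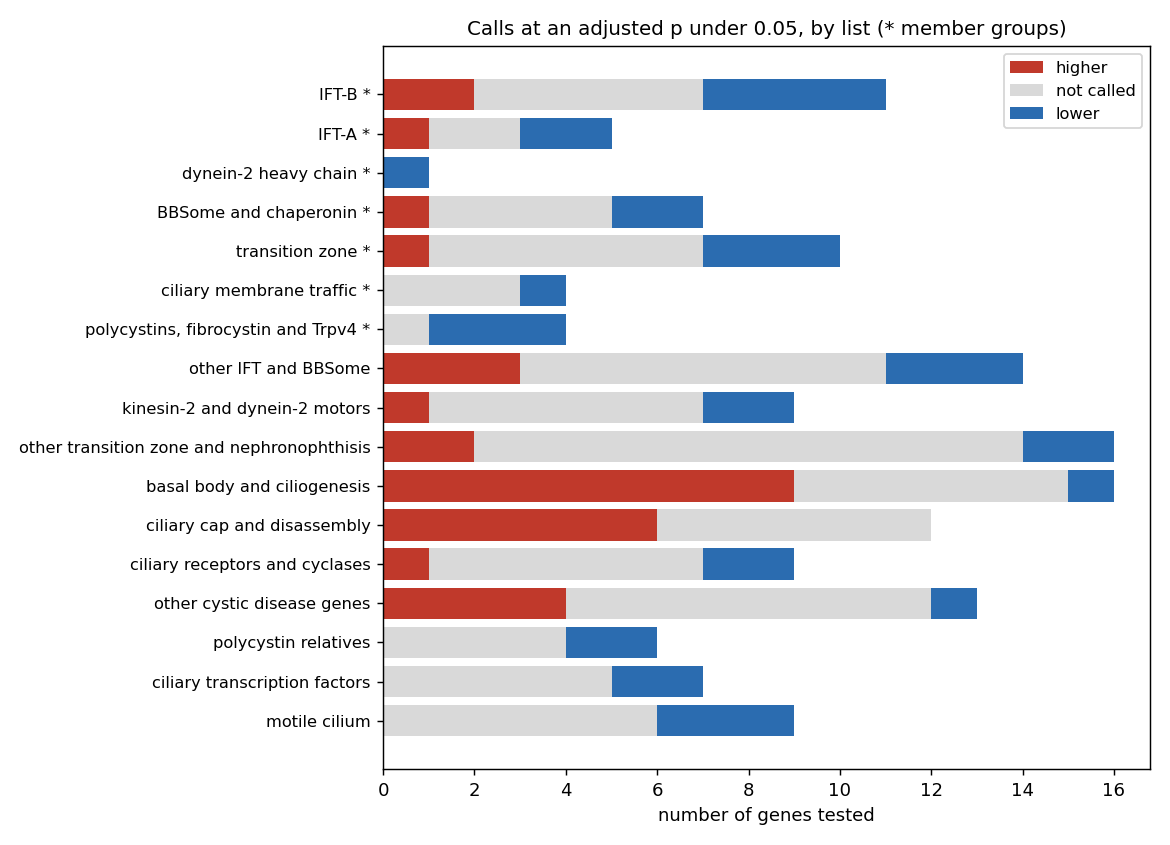
Number of genes tested in each list, split into higher (red), not called (grey) and lower (blue) after BDL in the TMM-scaled edgeR fit, with the groups of the 42 members starred. Basal body genes (9 higher, 1 lower, of 16) are mostly red, cap and disassembly genes (6 higher, none lower, of 12) are red and grey in equal parts, and the polycystin group (3 lower of 4) is mostly blue, although by total counts no member was called lower. Of all genes tested, 21.4% were higher and 19.9% lower.

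**Figure D5:**
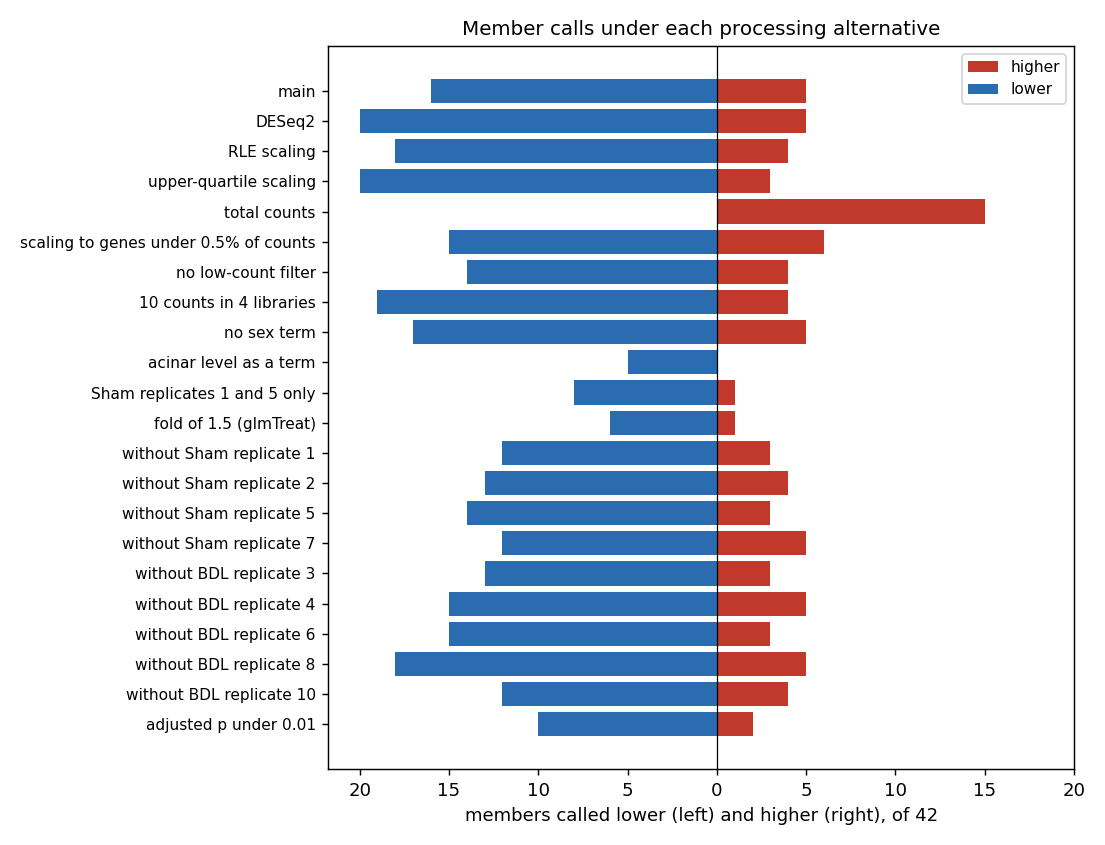
Number of the 42 members called lower (blue, to the left) and higher (red, to the right) under each processing alternative. Lower calls number 12 to 20 in most settings, 5 with the acinar term, 8 with sham replicates 1 and 5 only, 6 against a fold of 1.5, 10 at an adjusted p under 0.01 and 0 by total counts.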

How the data were processed

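Bulk RNA-Seq libraries of 4 sham and 5 BDL EHBDs, 24 hours after surgery, were analysed. Per the labels and the study's methods, the authors made libraries with the SMART-Seq mRNA kit, which does not mark strand, quantified reads with Salmon (Gencode transcripts, GRCm39), and obtained gene-level values through tximeta. The deposited values are unnormalized estimated counts, in whole numbers. Transcript length offsets were not used here. Surgery came from the labels and sex from the deposited sheet.

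The 21299 genes whose counts over the 9 libraries sum to 10 or more entered edgeR 4.0.16 in R 4.3.3 (quasi-likelihood test, TMM scaling, sex beside surgery, Benjamini-Hochberg over all genes tested). The standard error (SE) of a log2 fold change is that value divided by the square root of F. Normalized counts used size factors from DESeq2 1.42.0. In a simulation of BDL against sham (21299 genes, 50 altered per fold), the test found 94% of the genes raised 4-fold, 58% of those raised 2-fold, 30% of those cut to 0.5 and 94% of those cut to 0.25, with 4.17% false among its calls. The altered genes were drawn from the more abundant ones, so these shares do not cover genes at low counts such as Nphp4. No other gene was changed by simulated surgery, so the dependence on scaling was not tested there. In the data 8810 of the 21299 genes were called, far more than the simulation altered. The same adjusted threshold then admits larger unadjusted p-values, so the shares found in the simulation do not carry over to the data. P-values measure the spread between single mice. Counting error alone limits a level that rests on 14 counts more than one that rests on 4232.

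Starts, transcript lengths and exon overlaps came from GENCODE release M39 on GRCm39, in which 55261 of the 55822 gene IDs were found. Of the 42 members, 23 share exon bases with another annotated gene. All 42 members are named, and of the other lists those that passed, up to 4 of smallest p in each direction; Foxj1 and the kinesin-2 genes were named after their values were seen. The members and all lists were chosen with earlier results of these data known. Alternatives were DESeq2, RLE, upper-quartile and total-count scaling, TMM on genes under 0.5% of the counts, no filter or 10 counts in 4 libraries, no sex term, an acinar term, sham replicates 1 and 5 alone, other thresholds and each library left out.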

Additional observations from a re-analysis of the deposited data

Results flagged for a closer look

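In 5 of 84 groups (the 42 genes in sham and in BDL, 5.95%), 1 library stood apart from its group by Dixon's criterion, which chance alone gives in about 1 in 20. Trpv4 was at 574 normalized counts in BDL replicate 6, with the next BDL library at 306. Ift122 was at 301 in BDL replicate 3, with the next at 435, and at 841 in sham replicate 7, with the next at 776. Ift80 was at 470.3 in sham replicate 7, with the next at 379. Ift52 was at 924 in BDL replicate 8, with the next at 815. Sham replicate 7 had the largest acinar share of all libraries, 61.8%, and BDL replicate 6 the smallest, 0.0104%. The part of these shares in the values was not tested.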

How the results depend on the processing

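No paired analysis was run because the labels used here name no pairs of sham and BDL mice. Per the study's methods, mice were matched by age and sex, and littermates served as controls where possible. With 1 library left out, members called higher numbered 3 to 5 and lower 12 to 18, their median log2 fold change was -0.32 to -0.14 (-0.14 without sham replicate 1), higher and lower calls over all genes numbered 3892 to 4523 and 3284 to 4226, and those among the other cilium genes 21 to 25 and 10 to 19 (10 lower without BDL replicate 3). The value was -0.035 to 0.27 for Ift80 and -0.27 to 0.11 for Trpv4. Members called higher and lower numbered 3 and 20 with upper-quartile scaling (median -0.41, with -0.18 over all genes), 5 and 20 with DESeq2, 15 and 0 by total counts (median 0.69), 0 and 5 with the acinar term, 1 and 8 with sham replicates 1 and 5 only, 1 and 6 against a fold of 1.5, and 2 and 10 at an adjusted p under 0.01. The main counts were 5 and 16. Relative to all genes the member median was -0.20 to -0.30 over the scalings and the acinar term. All genes called higher and lower numbered 8150 and 1145 by total counts, 1084 and 366 with the acinar term, 2298 and 2362 against a fold of 1.5, and 2519 lower at an adjusted p under 0.01 (main 4565 and 4245). For the other cilium genes (main 26 and 18) these were 53 and 1 by total counts, 9 and 1 with the acinar term, 9 lower with sham replicates 1 and 5 only, 11 and 7 against a fold of 1.5, 17 and 7 at an adjusted p under 0.01, and 28 lower with DESeq2 and with upper-quartile scaling. Lower calls were 8.18% of those tested with sham replicates 1 and 5 only, against 13.6% of all genes. With DESeq2 and with upper-quartile scaling they were 25.2%, against 23.8% and 24.1% of all genes. The cause of these differences was not tested.

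By total counts, which moved the median of all genes to 0.89, log2 fold changes that were negative became positive for Ift20 (0.18), Ift22 (0.76), Ift46 (0.26), Ift52 (0.82), Ift81 (0.44), Ift88 (0.57), Ift122 (0.047), Bbs1 (0.33), Bbs4 (0.21), Bbs9 (0.37), Tmem67 (0.52), Tctn2 (0.40), Tctn3 (0.88), Cc2d2a (0.30), Arl13b (0.62), Arl3 (0.51), Inpp5e (0.78), Pkd2 (0.12), Pkhd1 (0.21), Trpv4 (0.93), Bbs10 (0.025), Lztfl1 (0.45), Iqcb1 (0.15), Anks6 (0.33), Ttbk2 (0.26), Adcy6 (0.29), Smo (0.51), Glis3 (0.32) and Rfx3 (0.33). The acinar term turned Ift57 (-0.24), Ift88 (0.051), Wdr35 (-0.16) and Cep290 (-0.027), sham replicates 1 and 5 only turned Tctn3 (0.018), and scaling to genes under 0.5% of the counts turned Trpv4 (0.0094). Of all these, Ift52 by total counts (0.82, adjusted p = 0.0497) was the only value that passed. No member differed by sex in its response in any fit run with edgeR or DESeq2. Depth limits Nphp4, Tulp3 and Bbs12 most, all under 100 normalized counts in every sham library.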
